A study of Homo sapiens with 12 samples.

Results

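The 40 genes described here make up a panel of DNA replication and S-phase genes. They were taken from a list of names that covers the loading and activation of the replicative helicase, the sliding clamp, the polymerases, ligation, nucleotide supply and the chromatin behind the fork. All 40 were found by symbol among the 11548 genes of the deposited table. RNA was sequenced from 3 human lines of hepatocellular carcinoma (HCC), Hep3B, Huh7 and MHCC97H, all labelled as wild type in genotype. Each line was left untreated, or received AZD8055, a kinase inhibitor of mTOR at 100 nM, compound #57, an inhibitor of the phosphatase SHP2, or both drugs together (the combination). Compound #57 was used at 5 µM in the combination of Hep3B and Huh7, and its dose in the other libraries was not stated separately. Hep3B and Huh7 were collected after 48 h and MHCC97H after 24 h, so that an effect of line and one of exposure cannot be told apart. There was 1 library for each line and treatment, 12 in all, and no condition had a replicate within a line.

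Cells copy their genome once in each S phase. Before S phase, the origin recognition complex, CDC6 and CDT1 load rings of the MCM helicase onto DNA, a step called licensing. The rings are then switched on by CDC45, the GINS complex and MCM10, and polymerases held by the PCNA clamp copy the opened strands. Many genes of this machinery are targets of the E2F transcription factors, which are held back by the retinoblastoma (RB) family until cyclin-dependent kinases release them. Proliferating cancer cell lines carry these transcripts at high levels, and mTOR signaling is one of the inputs to growth and entry into the cycle. In bulk RNA, fewer cells in S phase and less of a transcript per cell cannot be told apart.

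The libraries held between 10659952 and 15957252 reads, of which the genes of the table took 98.6% to 99.3%. Levels are given as reads per 10000000 reads of the library, and a log2-fold change is the difference of the deposited log2 values. A member had between 69 and 12092 reads in a library, so that none was near the limit of detection. Of the members, 3 share at least 10% of their exon bases with another protein-coding gene (TYMS, POLA2 and PRIM1), and 10 have annotated pseudogenes named after them, among them PCNA, ORC1, RRM2 and FEN1. How reads were split there is uncertain. Intervals of single genes are 95% Clopper-Pearson intervals of the ratio of reads between 2 libraries. These hold counting error alone, so they set one library against another and say nothing on the condition. The 11 hepatocyte markers summed to 222917 to 624321 in the Hep3B libraries, 349289 to 527879 in Huh7 and 1434 to 3473 in MHCC97H, where APOC3 had 0 reads in all 4 libraries. ALB encodes albumin and TTR transthyretin, and both were lower in every MHCC97H library than in any library of the other lines. ALB had 211082, 119637, 402561 and 181162 in Hep3B, 40749.5, 23891, 76492 and 68574 in Huh7 and 303, 142, 732 and 256 in MHCC97H, in the order untreated, AZD8055, compound #57 and combination. TTR had 650.1, 631, 739 and 419.8 in Hep3B, 2479.8, 1770.4, 2429 and 822 in Huh7 and 0, 2.11, 1.76 and 0 in MHCC97H. All values by library follow this order of treatments. HNF4A, the hepatocyte transcription factor, had 2079, 2505, 3187 and 3184 in Hep3B, 3026, 3315, 4322 and 4114 in Huh7 and 595, 748, 957 and 1651 in MHCC97H. Of 12 markers of fibroblasts, endothelium and leukocytes, 5 were among the genes of the table (COL1A1, COL1A2, LUM, PECAM1 and LYZ). They summed to 1250.5, 486, 375 and 266 in Hep3B, 8659, 3183, 2756 and 1856 in Huh7 and 693, 617, 1382 and 1193 in MHCC97H. The untreated library was thus the highest in Hep3B and Huh7 and not in MHCC97H. LYZ, encoding lysozyme, had 1141, 381, 68.5 and 31.6 in Hep3B, 7518, 1541, 1464 and 523 in Huh7 and 0.768, 4.91, 2.63 and 4.05 in MHCC97H. COL1A1, encoding a collagen, had 28.1, 35.2, 158 and 153 in Hep3B, 92.1, 889, 194 and 689 in Huh7 and 9.99, 12.6, 14.9 and 23.5 in MHCC97H. LUM had 61.9, 56.4, 115 and 51.1 in Hep3B, 36.3, 13.3, 50.9 and 10.3 in Huh7 and 397, 230, 823 and 704 in MHCC97H. PECAM1 had 9.38, 5.73, 17.3 and 8.91 in Hep3B, 55.8, 9.14, 30.99 and 4.3 in Huh7 and 285, 368, 542 and 460 in MHCC97H. LUM and PECAM1 were thus highest in MHCC97H in every treatment, whereas LYZ, COL1A1 and COL1A2 were highest in Huh7. The part of these markers and of liver identity in the results was not tested.

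The members together took 0.524% of the reads in untreated Hep3B, 0.590% in untreated Huh7 and 0.511% in untreated MHCC97H. With AZD8055 the share was 0.497% in Hep3B, 0.464% in Huh7 and 0.231% in MHCC97H. With compound #57 it was 0.446%, 0.487% and 0.543% in the same order of lines, and with the combination 0.387%, 0.341% and 0.237%. The lowest share thus lay in the libraries of MHCC97H that contained AZD8055, whereas in Hep3B and Huh7 the lowest was the combination. The median log2-fold change of the members with AZD8055 was -0.096 in Hep3B, -0.30 in Huh7 and -1.19 in MHCC97H, against 0.017, -0.016 and 0.055 over all genes. With compound #57 the median was -0.23, -0.21 and 0.085, against 0.011, 0.032 and 0.082 over all genes. With the combination it was -0.51, -0.69 and -1.08, against 0.055, 0.040 and 0.089 over all genes. In MHCC97H the median with compound #57 turned to -0.024 when libraries were centred on their medians. The plot of changes by cell line shows all 40 members.

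**Figure D1:**
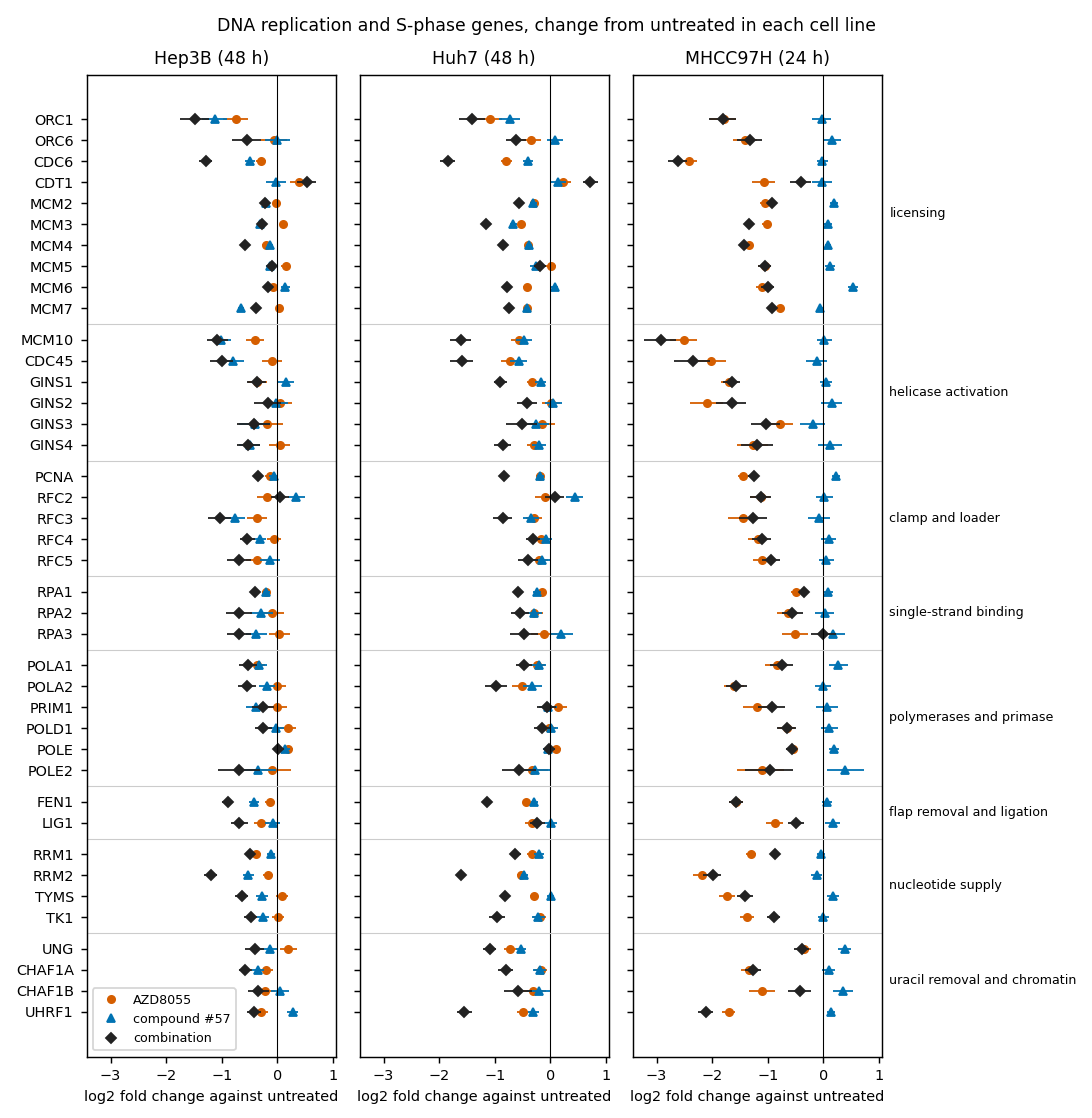
Log2-fold change of each of the 40 members against the untreated library of the same line (x axis), with members in rows by role. Points are AZD8055 (circles), compound #57 (triangles) and the combination (diamonds), and bars are 95% Clopper-Pearson intervals from reads. In MHCC97H all 40 members lie below 0 with AZD8055 (median -1.19), and the points of compound #57 lie around 0.

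A change of at least 1.5-fold was used to count members within a line. With AZD8055, 1 member in Hep3B, 4 in Huh7 and 36 in MHCC97H were at least 1.5-fold lower, against 4.32%, 10.1% and 10.5% of all genes. With compound #57 the counts were 5, 2 and 0 members, against 12.6%, 5.57% and 2.76% of all genes. With the combination they were 14, 22 and 32 members, against 15.7%, 16.7% and 13.7%. CDT1 in Huh7 with the combination was the 1 member that was at least 1.5-fold higher than untreated in any line, where 23.5% of all genes were. The drug that separated the libraries also differed by line. In MHCC97H, both libraries with AZD8055 lay below both libraries without it for 40 of 40 members, against 30.7% of all genes. In Huh7 this held for 25 members (26.7% of all genes) and in Hep3B for 12 (13.2%). Both libraries with compound #57 lay below both without it for 25 members in Hep3B (26.9% of all genes), 12 in Huh7 (14.8%) and 0 in MHCC97H (8.56%).

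Across the lines, a limma model with terms for the treatment and the line took in all 12 libraries, and genes with a Benjamini-Hochberg adjusted p under 0.05 over all 11548 genes were called. The 3 lines stand in as the replicates of a treatment here (n = 3), and values after ± are standard errors (SE). With the combination, 24 of 40 members were called lower than untreated and 0 higher, against 15.1% of all genes lower and 20.9% higher. At an unadjusted p under 0.05, 31 members were lower and 0 higher, against 20.2% and 27.4% of all genes. The median log2-fold change of the members was -0.71, against 0.086 over all genes, and 37 of 40 members were lower in all 3 lines (25.6% of all genes). The exceptions were CDT1, RFC2 and POLE. For 19 members the 3 combination libraries lay below the 3 untreated ones without overlap, which held for 7.57% of all genes. The count of 24 called members was 10 without the Hep3B libraries, 0 without the Huh7 libraries and 26 without the MHCC97H libraries, of which 25 were lower and 1 was higher. Without the cell line term it was 0. The share of all genes called in these other fits is not given here, so their counts do not show a trait of the members.

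A second limma model gave each line its own effect of AZD8055 and of compound #57, each from 2 libraries with the drug against 2 without it. The model assumes that both drugs add up within a line. Its residual is the departure from that sum within the lines, so its SE and p hold no spread between replicates. The effect of AZD8055 was larger in the negative direction in MHCC97H than in the mean of Hep3B and Huh7 for 34 of 40 members, and 0 members were called in the other direction. Of all genes, 4.46% were called lower and 5.07% higher in this difference. The median difference was -1.01 for the members and -0.012 over all genes, and the sign was negative for 40 of 40 members. The count was 1 without the untreated, 2 without the AZD8055, 4 without the compound #57 and 4 without the combination library of MHCC97H. MHCC97H has a larger weight in the difference than either other line, so these counts depend on the design as well as on the values. Without 1 of the 8 libraries of the other lines the count was 23 to 30. A line with 1 library left out is fitted exactly and adds nothing to the residual. With all 12 libraries, 37 members were lower and 0 higher at an unadjusted p under 0.05, against 13.8% and 14.4% of all genes.

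The promoters of 4 members with different behaviour are shown here because a match to an E2F-type motif was found in most members with a window. RefSeq promoter windows of 300 bases on GRCh38.p14, from 250 bases before to 50 bases after a gene start, were at hand for 35 of the 40 members. MCM4, MCM5, GINS4, RPA2 and RPA3 had no window. Motifs of the E2F type were searched as TTTCCCGC, TTTGGCGC, TTTCGCGC and TTTGCCGC on both strands. At least 1 was found in 19 of the 35 members (54.3%), against 3.99% of the 27305 genes with a window. The windows lie at chr17:40287629-40287928 (plus strand) for CDC6, chr20:5126573-5126872 (minus strand) for PCNA, chr19:4909251-4909550 (plus strand) for UHRF1 and chr16:88803539-88803838 (plus strand) for CDT1. They are printed in the sense of the gene, and capitals mark the match, on either strand.
CDC6: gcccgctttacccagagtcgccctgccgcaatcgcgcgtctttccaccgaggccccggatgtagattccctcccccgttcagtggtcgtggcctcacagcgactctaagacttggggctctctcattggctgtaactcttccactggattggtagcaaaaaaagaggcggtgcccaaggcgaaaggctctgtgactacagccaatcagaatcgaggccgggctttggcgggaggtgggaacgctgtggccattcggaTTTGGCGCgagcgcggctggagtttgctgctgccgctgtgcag
PCNA: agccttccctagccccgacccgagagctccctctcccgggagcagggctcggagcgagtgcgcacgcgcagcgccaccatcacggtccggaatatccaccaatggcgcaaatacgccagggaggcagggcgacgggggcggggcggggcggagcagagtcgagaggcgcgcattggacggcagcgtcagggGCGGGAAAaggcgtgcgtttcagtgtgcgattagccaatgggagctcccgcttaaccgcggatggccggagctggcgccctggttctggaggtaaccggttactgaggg
UHRF1: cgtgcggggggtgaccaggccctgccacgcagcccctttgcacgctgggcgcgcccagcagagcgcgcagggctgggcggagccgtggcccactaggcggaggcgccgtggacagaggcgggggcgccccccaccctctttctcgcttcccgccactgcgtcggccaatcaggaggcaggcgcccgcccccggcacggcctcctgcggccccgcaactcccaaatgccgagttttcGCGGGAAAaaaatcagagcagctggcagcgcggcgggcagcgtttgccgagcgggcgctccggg
CDT1: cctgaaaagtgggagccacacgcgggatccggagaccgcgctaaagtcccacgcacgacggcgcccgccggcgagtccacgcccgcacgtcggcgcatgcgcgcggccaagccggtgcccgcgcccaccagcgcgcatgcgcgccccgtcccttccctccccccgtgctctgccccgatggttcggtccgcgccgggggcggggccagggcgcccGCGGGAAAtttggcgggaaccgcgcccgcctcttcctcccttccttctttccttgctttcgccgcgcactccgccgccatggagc

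The first 3 of these genes were lower in all 3 lines with the combination, and CDT1, whose window carries the same match as PCNA and UHRF1, was not. In CDC6 the match starts 7 bases after the RefSeq start of its window, and in PCNA, UHRF1 and CDT1 it lies 59, 14 and 35 bases before it. The UHRF1 window belongs to a start inside the gene, downstream of the first annotated base, and a second UHRF1 window (chr19:4909894-4910193, not printed) has TTTCGCGC 160 bases before its start. The TTTCCCGC motif was found in 10 members, TTTGGCGC in 6, TTTCGCGC in 6 and TTTGCCGC in 1. CCAAT, the motif bound by NF-Y, was found in 22 of the 35 members (62.9%) and in 39.7% of all genes with a window. Among the genes of the expression table, 8714 of 11544 names had a window, and E2F-type motifs were found in 6.87% and CCAAT in 43.8% of these. The shares among the names without a window are not known. In 36 other replication genes the E2F-type motifs were found in 10 of 29 with a window (34.5%). In 16 genes of mitosis they were found in 1 of 14 (7.14%), whereas CCAAT was found in 11 of 14 (78.6%). A match is a description of these letters and not evidence of binding.

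Licensing was the largest group, with 10 members. ORC1 (chr1:52372829-52404423, GENCODE 44 on hg38, as are all gene positions here) encodes the largest subunit of the origin recognition complex. ORC1 had 404, 239.7, 185 and 144 in Hep3B, 452, 214, 272 and 170.4 in Huh7 and 498, 143, 487 and 142 in MHCC97H, in reads per 10000000. It was the member with the lowest adjusted p for the combination against untreated, with a log2-fold change of -1.56 ± 0.31 (adjusted p = 0.00618) by limma, and the treated libraries of AZD8055 and of the combination did not overlap with the untreated ones. ORC6 (chr16:46689643-46698394), another subunit of the complex, had 265, 255, 264 and 181 in Hep3B, 481, 379, 509 and 314 in Huh7 and 489, 184, 544 and 195 in MHCC97H. Its log2-fold change with the combination was -0.83 ± 0.26 (adjusted p = 0.032). CDC6 (chr17:40287879-40304657) joins the complex at origins and helps to load the helicase. CDC6 had 1780.5, 1447, 1264 and 730.2 in Hep3B, 1643, 948, 1247 and 455 in Huh7 and 1474, 274, 1455 and 239 in MHCC97H. Every treated library was below the lowest untreated one, and with AZD8055 the log2-fold change was -0.30 (95% interval -0.39 to -0.20) in Hep3B, -0.79 (95% interval -0.89 to -0.69) in Huh7 and -2.42 (95% interval -2.59 to -2.27) in MHCC97H. Across the lines CDC6 was lower with the combination, at -1.92 ± 0.41 (adjusted p = 0.00814). CDT1 (chr16:88803789-88809258) brings the helicase to the origin and is destroyed once S phase begins. CDT1 had 447, 586, 439 and 643 in Hep3B, 533, 626, 585 and 875 in Huh7 and 407, 193, 400.4 and 306 in MHCC97H. It differed from the rest of the group. With the combination it was 0.52 (95% interval 0.36 to 0.69) in Hep3B, 0.71 (95% interval 0.58 to 0.85) in Huh7 and -0.41 (95% interval -0.61 to -0.22) in MHCC97H. The mean over lines was 0.28 ± 0.28 (adjusted p = 0.453). The effect of AZD8055 on CDT1 was lower in MHCC97H than in the other lines at -1.17 ± 0.21 (adjusted p = 0.0187).

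MCM2 to MCM7 form the ring of the helicase. MCM2 (chr3:127598410-127622436) had 3231, 3185, 2813 and 2785 in Hep3B, 2944, 2412, 2373 and 1986 in Huh7 and 2281, 1101, 2599.9 and 1197 in MHCC97H. MCM3 (chr6:52264014-52284881) had 5189.5, 5582, 4192 and 4291 in Hep3B, 4166, 2897, 2623 and 1872 in Huh7 and 2753, 1359, 2905 and 1095 in MHCC97H. In both, the lowest values were the MHCC97H libraries with AZD8055, and the Huh7 combination library was the lowest of its line. MCM4 (chr8:47960185-47978160) had 3690.4, 3199.9, 3365 and 2452 in Hep3B, 4720.1, 3572, 3629 and 2609 in Huh7 and 5136, 2038, 5445 and 1919 in MHCC97H. MCM5 (chr22:35400134-35425431) had 2393, 2649, 2179.5 and 2228 in Hep3B, 1204, 1213, 1004 and 1059 in Huh7 and 1512, 726, 1638 and 729 in MHCC97H. MCM5 had log2-fold changes of 0.15 and 0.0098 with AZD8055 in Hep3B and Huh7, against -1.06 (95% interval -1.17 to -0.95) in MHCC97H. MCM6 (chr2:135839626-135876443) had 2139.8, 2034, 2361 and 1914 in Hep3B, 2649.6, 1985, 2790.2 and 1544 in Huh7 and 1529.6, 711, 2212 and 764 in MHCC97H. MCM7 (chr7:100092233-100101940) had 4758, 4878, 3015 and 3641 in Hep3B, 7578, 5683, 5638 and 4518 in Huh7 and 7532, 4383, 7260.5 and 3945 in MHCC97H. Compound #57 alone left MCM6 in MHCC97H at 0.53 (95% interval 0.45 to 0.62), the highest change of any member in that line, and MCM7 in Hep3B at -0.66 (95% interval -0.72 to -0.60). With the combination, MCM4 was lower at -0.95 ± 0.25 (adjusted p = 0.0173), MCM3 at -0.92 ± 0.27 (adjusted p = 0.0274) and MCM7 at -0.69 ± 0.22 (adjusted p = 0.0373), whereas MCM2, MCM5 and MCM6 were not called. In all, 6 of 10 licensing members were called lower with the combination and 10 of 10 in the difference of the AZD8055 effect between MHCC97H and the other lines, with medians of -0.76 and -1.03. The shares of all genes called lower were 15.1% and 4.46%, here and for the roles below.

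The 6 members of helicase activation had a median difference of the AZD8055 effect of -1.41, the lowest of the 8 roles. MCM10 (chr10:13161558-13211110) helps the loaded helicase to start unwinding. MCM10 had 616, 465, 305 and 291 in Hep3B, 718, 485, 516 and 234 in Huh7 and 698, 122, 708 and 91.4 in MHCC97H. With AZD8055 the log2-fold change was -2.51 (95% interval -2.76 to -2.28) in MHCC97H, and -0.41 and -0.57 in Hep3B and Huh7. MCM10 thus had the largest difference of the AZD8055 effect among the members, -2.18 ± 0.22 (adjusted p = 0.00545). In Hep3B, compound #57 and the combination gave near equal values, both lower than AZD8055. CDC45 (chr22:19479457-19520612) joins the MCM ring to make the active helicase. CDC45 had 481, 449.9, 277 and 241 in Hep3B, 621, 375, 418 and 205 in Huh7 and 401, 98.3, 369.7 and 78.5 in MHCC97H. The same order was seen in Hep3B, where CDC45 was -0.10 with AZD8055, -0.79 with compound #57 and lowest with the combination. Across the lines CDC45 was lower with the combination at -1.64 ± 0.40 (adjusted p = 0.0132).

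The GINS complex, the third component of the active helicase, has 4 subunits. GINS1 (chr20:25391008-25452700) had 558, 434, 622 and 430.3 in Hep3B, 1258, 1006, 1113 and 675 in Huh7 and 1089, 336, 1120.4 and 347 in MHCC97H. GINS2 (chr16:85676198-85690073) had 280.5, 289, 274 and 248 in Hep3B, 444, 447, 461 and 333 in Huh7 and 369.5, 86.3, 410.0 and 117 in MHCC97H. GINS2 with AZD8055 was near the untreated level in Hep3B and Huh7 (0.042, 95% interval -0.18 to 0.27, and 0.0092, 95% interval -0.16 to 0.17) and -2.08 (95% interval -2.40 to -1.81) in MHCC97H. GINS3 (chr16:58295080-58406147) had 193, 170.1, 145 and 143 in Hep3B, 211, 189, 175 and 147 in Huh7 and 293, 171, 256 and 142 in MHCC97H. GINS4 (chr8:41529218-41545030) had 409.9, 421, 289 and 284 in Hep3B, 768, 629, 665 and 423 in Huh7 and 267, 111, 289.8 and 117 in MHCC97H. GINS3 had the smallest difference of the AZD8055 effect in this group (-0.66 ± 0.17, adjusted p = 0.0493) and GINS2 that of -1.80 ± 0.19 (adjusted p = 0.00545). All 6 members of the group were called in this difference (4.46% of all genes called lower, median -1.41). With the combination, 5 of 6 were called lower (15.1% of all genes, median -0.92), and GINS2 was not, at -0.75 ± 0.42 (adjusted p = 0.181).

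PCNA (chr20:5114953-5126626) is the clamp that holds polymerases on DNA. PCNA had 2239, 2035, 2133 and 1749.7 in Hep3B, 3113, 2734, 2750.3 and 1756 in Huh7 and 2557, 938, 2998 and 1070.4 in MHCC97H. In MHCC97H the libraries with AZD8055 lay below those without it by more than the whole range of the Hep3B libraries. The log2-fold change with the combination over the lines was -0.81 ± 0.29 (adjusted p = 0.0515), which missed the threshold, and the difference of the AZD8055 effect was -1.15 ± 0.16 (adjusted p = 0.00959). The other 4 members of the group, RFC2 to RFC5, are subunits of the loader that opens the clamp. RFC2 (chr7:74231499-74254458) had 501, 440.1, 633 and 517 in Hep3B, 396, 369.9, 536 and 418 in Huh7 and 591, 269.5, 599 and 270.2 in MHCC97H. RFC3 (chr13:33818069-33966558) had 509, 395, 299.6 and 249 in Hep3B, 614, 500.4, 483 and 338 in Huh7 and 344, 126, 326 and 143 in MHCC97H. RFC2 was higher with compound #57 in Hep3B (0.34, 95% interval 0.18 to 0.49) and Huh7 (0.44, 95% interval 0.28 to 0.59), whereas RFC3 was -0.76 (95% interval -0.95 to -0.58) and -0.34 (95% interval -0.49 to -0.20). RFC4 (chr3:186789880-186807058) had 984, 942, 789 and 675 in Hep3B, 805, 712, 758 and 647 in Huh7 and 709, 312, 757 and 328 in MHCC97H. RFC5 (chr12:118013588-118033130) had 405, 314, 371 and 252 in Hep3B, 471, 408, 424 and 356 in Huh7 and 729.9, 339.7, 756 and 379 in MHCC97H. With the combination RFC3 was lower at -1.05 ± 0.27 (adjusted p = 0.0165) and RFC5 at -0.68 ± 0.20 (adjusted p = 0.0247), and the other members of the group were not called. All 5 were called in the difference of the AZD8055 effect (4.46% of all genes called lower, median -0.95).

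**Figure D2:**
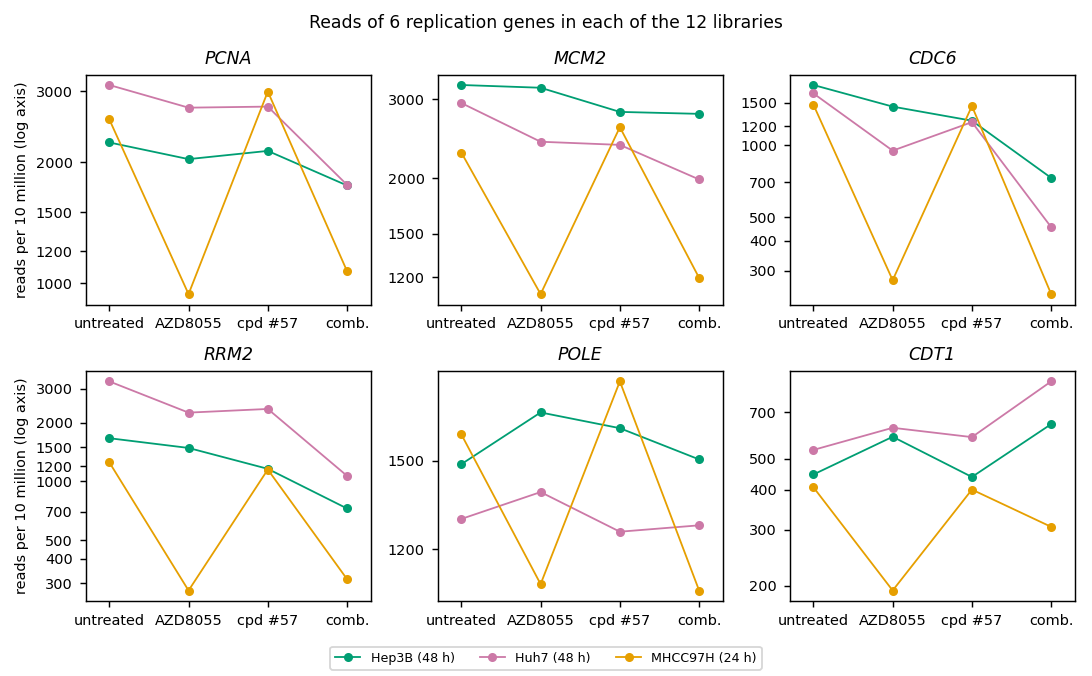
Reads per 10000000 (log axis, its range set per gene) of PCNA, MCM2, CDC6, RRM2, POLE and CDT1 in the 12 libraries, by treatment and cell line. Each point is 1 library, and lines join the libraries of a cell line. MHCC97H drops at both treatments with AZD8055 for all 6 genes, and CDT1 is highest in the combination library of Hep3B and of Huh7.

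The single-strand binding protein RPA coats unwound DNA and has 3 subunits. RPA1 (chr17:1829702-1900082), the largest, had 3549, 3081, 3096 and 2686 in Hep3B, 2348, 2105, 1979 and 1574 in Huh7 and 2093, 1484, 2221 and 1642 in MHCC97H. RPA2 (chr1:27891524-27914746) had 341, 319.8, 279.8 and 211 in Hep3B, 571, 468, 465 and 391 in Huh7 and 453, 289, 459 and 307 in MHCC97H. RPA3 (chr7:7636518-7718607), the smallest, had 415, 424, 319 and 256 in Hep3B, 248, 229, 283 and 179 in Huh7 and 259.7, 183, 292 and 259 in MHCC97H. The MHCC97H combination library held RPA3 at the untreated level (-0.0043, 95% interval -0.23 to 0.22). In this group 0 of 3 members were called in the difference of the AZD8055 effect between lines, by limma (4.46% of all genes called lower). At an unadjusted p under 0.05, 1 member was lower (RPA2, -0.35 ± 0.15, adjusted p = 0.175), against 13.8% of all genes. RPA1 and RPA2 were lower with the combination across the lines, at -0.44 ± 0.14 (adjusted p = 0.0299) and -0.60 ± 0.16 (adjusted p = 0.0184).

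DNA polymerase alpha and primase start each new strand. POLA1 (chrX:24693873-24996986), the catalytic subunit, had 701, 542, 559.6 and 487 in Hep3B, 688, 583, 595 and 494 in Huh7 and 413, 230.2, 497 and 246 in MHCC97H. POLA2 (chr11:65261913-65305959), an accessory subunit, had 658, 658, 576 and 452 in Hep3B, 470.0, 329, 376 and 238 in Huh7 and 714, 234, 711 and 241 in MHCC97H. PRIM1 (chr12:56730438-56752374), which makes the RNA primer, had 404, 399.99, 311 and 339.6 in Hep3B, 419, 462, 407 and 400.2 in Huh7 and 329.6, 144, 346 and 173 in MHCC97H. In Huh7, PRIM1 was higher with AZD8055 (0.14, 95% interval -0.022 to 0.31), and its interval reaches below 0. POLD1 (chr19:50384204-50418018) is the catalytic subunit of the lagging strand polymerase, and POLE (chr12:132623753-132687376) that of the leading strand polymerase. POLD1 had 658, 746, 649 and 551 in Hep3B, 634, 621, 635 and 571 in Huh7 and 603, 380.4, 649.7 and 381 in MHCC97H. POLE had 1488, 1696, 1629.5 and 1506 in Hep3B, 1295, 1386, 1254 and 1275 in Huh7 and 1604, 1099, 1834 and 1081 in MHCC97H. In Hep3B and Huh7, POLE ranged from -0.047 with compound #57 in Huh7 to 0.19 with AZD8055 in Hep3B, and in MHCC97H it was -0.55 (95% interval -0.64 to -0.45) with AZD8055 and -0.57 (95% interval -0.67 to -0.47) with the combination. POLE2 (chr14:49643555-49688422), an accessory subunit, was the member with the fewest reads and had 139.8, 131, 109 and 86.7 in Hep3B, 178, 142, 147 and 120.5 in Huh7 and 109.9, 50.5, 144 and 55.8 in MHCC97H. With the combination POLA1 was lower at -0.58 ± 0.19 (adjusted p = 0.0408) and POLA2 at -1.03 ± 0.30 (adjusted p = 0.0247), and the other 4 members were not called. All 6 were called in the difference of the AZD8055 effect (4.46% of all genes called lower, median -0.84). This difference was -0.70 ± 0.15 (adjusted p = 0.0262) for POLE and -1.20 ± 0.15 (adjusted p = 0.00792) for POLA2.

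FEN1 (chr11:61792911-61797238) trims the flaps between fragments of the lagging strand, and LIG1 (chr19:48115445-48170603) seals them. FEN1 had 1948, 1771, 1452 and 1048 in Hep3B, 3118, 2307, 2549 and 1411 in Huh7 and 1552, 522, 1629.6 and 523 in MHCC97H. LIG1 had 807, 661, 759 and 501 in Hep3B, 728, 581, 729 and 616 in Huh7 and 724, 395, 813 and 513 in MHCC97H. FEN1 with the combination was -0.89 in Hep3B, -1.14 in Huh7 and -1.57 in MHCC97H, and -1.20 ± 0.29 (adjusted p = 0.0132) over the lines. LIG1 missed the threshold (-0.47 ± 0.17, adjusted p = 0.0506), and its AZD8055 effect did not pass the test of the difference between lines (-0.41 ± 0.15, adjusted p = 0.123). FEN1 passed that test (-1.13 ± 0.17, adjusted p = 0.0104).

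Nucleotide supply was covered by 4 members. Ribonucleotide reductase makes deoxynucleotides from a large subunit, RRM1 (chr11:4094707-4138932), and a small one, RRM2 (chr2:10120698-10211725). RRM1 had 2249, 1730.0, 2071 and 1603 in Hep3B, 1649, 1314, 1427 and 1064 in Huh7 and 2582, 1050.1, 2495 and 1404 in MHCC97H. RRM2 had 1668, 1486, 1161 and 726 in Hep3B, 3267, 2257, 2358 and 1068 in Huh7 and 1255, 275, 1151 and 315 in MHCC97H. The small subunit was further below untreated than the large one in every line with the combination. RRM2 was -1.20 (95% interval -1.32 to -1.08), -1.61 (95% interval -1.70 to -1.52) and -1.99 (95% interval -2.16 to -1.83) in Hep3B, Huh7 and MHCC97H, and RRM1 -0.49 (95% interval -0.57 to -0.40), -0.63 (95% interval -0.73 to -0.53) and -0.88 (95% interval -0.96 to -0.80). In MHCC97H, RRM1 was higher in the combination library than with AZD8055 alone (0.42, 95% interval 0.32 to 0.52). Thymidylate synthase, TYMS (chr18:657653-673578), makes thymidylate anew and TK1 (chr17:78174091-78187233) recycles thymidine. TYMS had 1297, 1371, 1068 and 832 in Hep3B, 2474, 2012, 2479.6 and 1405 in Huh7 and 1205, 361, 1357 and 453 in MHCC97H. TK1 had 1305, 1312, 1092 and 933 in Hep3B, 915, 802, 787 and 469 in Huh7 and 1363, 526, 1361 and 735 in MHCC97H. In MHCC97H, TK1 was also higher with the combination than with AZD8055 (0.48, 95% interval 0.34 to 0.62). With the combination RRM2 was lower at -1.60 ± 0.37 (adjusted p = 0.0112), RRM1 at -0.67 ± 0.20 (adjusted p = 0.0269) and TK1 at -0.78 ± 0.27 (adjusted p = 0.0492), and TYMS missed the threshold (-0.96 ± 0.34, adjusted p = 0.0515). Of the exon bases of TYMS, 39.9% overlap those of ENOSF1 on the opposite strand, and whether counting used strand was not given in the sources used here. All 4 were called in the difference of the AZD8055 effect (4.46% of all genes called lower, median -1.08).

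UNG (chr12:109097597-109126725) removes uracil from DNA. UNG had 574, 658, 523 and 433 in Hep3B, 1595, 965, 1109.6 and 746 in Huh7 and 867, 684, 1131 and 662 in MHCC97H. It was the 1 member whose log2-fold change with AZD8055 was lowest in Huh7, at -0.72 (95% interval -0.83 to -0.62), and the difference of the AZD8055 effect between MHCC97H and the other lines did not pass the test (-0.21 ± 0.19, adjusted p = 0.491). CHAF1A (chr19:4402640-4445018) and CHAF1B (chr21:36385392-36419015) belong to the chaperone that places histones behind the fork. CHAF1A had 1154, 1004, 904 and 774 in Hep3B, 909, 807, 796 and 519.8 in Huh7 and 1001, 397, 1069 and 416 in MHCC97H. CHAF1B had 462, 396, 478 and 364 in Hep3B, 262, 210.3, 227 and 176 in Huh7 and 347, 161, 443 and 258 in MHCC97H. CHAF1B in MHCC97H was higher with the combination than with AZD8055 alone (0.68, 95% interval 0.43 to 0.93), and it was not called with the combination over the lines (-0.45 ± 0.23, adjusted p = 0.142). UHRF1 (chr19:4903080-4962154) reads hemimethylated DNA after replication and brings the maintenance methyltransferase. UHRF1 had 1112, 909, 1343 and 829.8 in Hep3B, 1407, 993, 1138 and 480.2 in Huh7 and 1998, 613, 2197 and 459 in MHCC97H. It was the member with the lowest ratio to untreated in Huh7 after CDC6, MCM10, CDC45 and RRM2, at -1.55 (95% interval -1.69 to -1.42) with the combination. UHRF1, CHAF1A and UNG were called lower with the combination, at -1.36 ± 0.33 (adjusted p = 0.0131), -0.88 ± 0.27 (adjusted p = 0.0283) and -0.63 ± 0.21 (adjusted p = 0.038).

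Per kilobase of annotated exon, untreated levels ordered PCNA first (1879 reads per 10000000 and kilobase, mean of the 3 lines), followed by MCM7 (1335), MCM3 (1107) and FEN1 (1004). The lowest were POLA1 (38.6), GINS3 (45.5) and POLE2 (48.4). Over the lines PCNA ranged from 1596 to 2219, MCM7 from 959 to 1528 and MCM3 from 755 to 1424, so that the order of MCM7 and MCM3 was within the spread between lines. Annotated exons of all transcripts were counted, which lowers the level of genes with long alternative exons.

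The single drugs gave fewer calls across the lines than the combination. With AZD8055, limma called 0 of 40 members against untreated, where 0.753% of all genes were called lower and 2.21% higher. At an unadjusted p under 0.05, 17 members were lower and 0 higher, against 12.2% of all genes lower and 15.2% higher, and 1 member was called by voom on whole reads. All 40 fitted values were negative (median -0.52), and the lowest adjusted p was that of ORC1, -1.21 ± 0.31 (adjusted p = 0.0587), followed by RRM1, -0.67 ± 0.20 (adjusted p = 0.0769). In 7 members the 3 AZD8055 libraries lay below the 3 untreated ones, against 3.58% of all genes. These were ORC1, CDC6, MCM4, MCM10, GINS3, LIG1 and UHRF1. With compound #57, limma called 0 members, and 0 passed at an unadjusted p under 0.05 either, with 0 by voom. Of all genes, 0% were called lower and 0.00866% higher, and 8.1% and 13.6% at the unadjusted threshold. The median over the members was -0.11 and 29 of 40 values were negative.

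Adding compound #57 to AZD8055 gave 0 called members by limma, with 0 at an unadjusted p under 0.05 and 0 by voom, and 0% of all genes were called in either direction. At the unadjusted threshold 5.19% of all genes were lower and 9.3% higher. The median over the members was -0.23 and the smallest adjusted p among them was 0.422. By line the median was -0.39 in Hep3B, -0.36 in Huh7 and 0.078 in MHCC97H, and members at least 1.5-fold lower numbered 12, 10 and 0, against 10.5%, 7.2% and 4.63% of all genes. Adding AZD8055 to compound #57 gave 1 called member, UHRF1, at -1.40 ± 0.33 (adjusted p = 0.0479) by limma, against 1.57% of all genes called lower and 2.62% higher. At an unadjusted p under 0.05, 29 members were lower (12% of all genes) and 0 higher (13.4%). CDC6 followed at -1.61 ± 0.41 (adjusted p = 0.0567) and MCM6 at -0.90 ± 0.24 (adjusted p = 0.0675). By line the median was -0.28 in Hep3B, -0.48 in Huh7 and -1.19 in MHCC97H. UHRF1 was near the threshold and lost its call without the libraries of any 1 line. The count of called members was 2 by voom, 3 with only the libraries compared, 0 without the Hep3B or the Huh7 libraries and 2, UHRF1 not among them, without the MHCC97H libraries. Both comparisons share the combination libraries.

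It was also asked whether the combination differed from the added effects of the single drugs on the log2 scale. By limma 0 members had an interaction that passed the test, with 0 at an unadjusted p under 0.05 and 0 by voom, and 0% of all genes were called, with 0.563% lower and 0.979% higher at the unadjusted threshold. The median over the members was -0.14. Within the lines, the median of the combination minus the sum was -0.17 in Hep3B, -0.15 in Huh7 and -0.033 in MHCC97H, and 30, 30 and 23 of 40 members lay below the sum. Over all genes the medians were 0.022, 0.00087 and -0.043.

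Effects of each drug within a line came from the second model, so their SE and p rest on the assumption of added effects. By limma with adjusted p under 0.05, 39 of 40 members were called lower with AZD8055 in MHCC97H (14.8% of all genes). In Huh7 16 were called lower (12.6%), and in Hep3B 0 (2.41%). Higher calls were 0 in each line, against 15.9%, 12.4% and 4.19% of all genes. In Hep3B 11 members were lower and 1 higher at an unadjusted p under 0.05 (10.6% and 14.9% of all genes), the smallest adjusted p was 0.0533, and voom called 1 member. At the unadjusted threshold 25 members were lower and 1 higher in Huh7 (20.3% and 19.7% of all genes), and 39 lower and 0 higher in MHCC97H (20.4% and 22.8%). The medians were -1.20 in MHCC97H, -0.39 in Huh7 and -0.21 in Hep3B. RPA3 was the member of MHCC97H that missed the threshold, at -0.34 ± 0.18 (adjusted p = 0.176). In Huh7 the members with the lowest adjusted p were CDC45 (-0.88 ± 0.13, adjusted p = 0.00468), CDC6 (-1.12 ± 0.18, adjusted p = 0.00508) and ORC1 (-0.88 ± 0.16, adjusted p = 0.00794). The Huh7 count was 7 without the untreated or the AZD8055 library of Huh7 and 1 without its compound #57 or combination library. The difference of the AZD8055 effect between Hep3B and Huh7 gave 0 called members by limma, 7 higher in Hep3B at an unadjusted p under 0.05, and 0 by voom, with 0.0346% of all genes called in either direction and 4.63% lower and 5.58% higher at the unadjusted threshold.

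For compound #57, 13 members were called lower by limma in Hep3B (13.3% of all genes), 5 in Huh7 (3.43%) and 0 in MHCC97H (0.736%). In MHCC97H, 0 members were lower and 1 was higher at an unadjusted p under 0.05 (5.14% and 13.4% of all genes), and voom called 0. The medians were -0.32, -0.30 and 0.084, against 0.022, 0.034 and 0.058 over all genes. CDC45, RRM2, MCM10 and CDC6 were called in both Hep3B and Huh7, and MCM3 in Huh7 alone. CDC45 was -0.85 ± 0.13 (adjusted p = 0.00344) in Hep3B and -0.72 ± 0.13 (adjusted p = 0.0214) in Huh7. ORC1 was -0.93 ± 0.16 (adjusted p = 0.00446) in Hep3B and -0.53 ± 0.16 (adjusted p = 0.074) in Huh7. The Hep3B count was 4 or 5 without any 1 of the 4 libraries of Hep3B, and the Huh7 count was 0 without any 1 of the libraries of Huh7 and 2 without any 1 of MHCC97H. The difference between MHCC97H and the mean of Hep3B and Huh7 had 0 called members by limma, with 0 lower and 27 higher in MHCC97H at an unadjusted p under 0.05 (9.07% and 13.2% of all genes), 0 by voom, and 2.42% of all genes called lower and 2.75% higher. Its median was 0.40 and its smallest adjusted p 0.0606. The difference between Hep3B and Huh7 gave 0 called members by limma and 0 by voom, against 0.381% of all genes lower and 0.546% higher. At an unadjusted p under 0.05, 0 members were lower and 2 higher in Hep3B (6.79% and 7.98% of all genes).

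**Figure D3:**
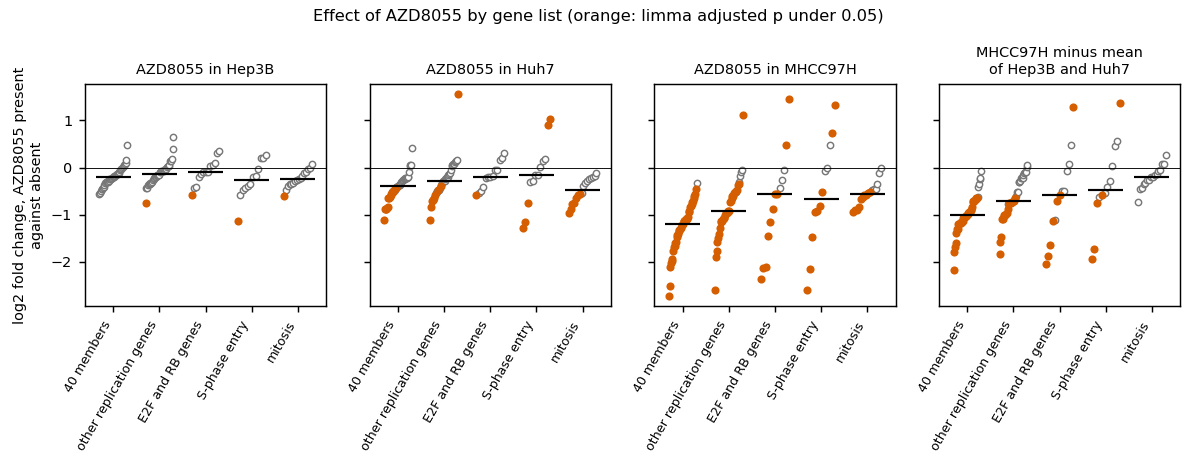
Effect of AZD8055 (log2-fold change with against without the drug, y axis) in each line, and its difference between MHCC97H and the mean of the other lines, for the 40 members and 4 comparison lists. Each point is a gene, orange points have a limma adjusted p under 0.05, and bars are medians. In the difference, 34 of 40 members and 0 of 16 mitosis genes are orange, against 4.46% of all genes called lower and 5.07% higher.

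Other genes of the cycle, in lists that do not overlap the members, were read in the same tests. Of 36 other replication genes, 16 were called lower and 1 higher with the combination, and 18 lower and 0 higher in the difference of the AZD8055 effect between MHCC97H and the other lines (median -0.71). All genes gave 15.1% lower and 20.9% higher with the combination, and 4.46% and 5.07% in the difference. CLSPN, an adaptor of the replication checkpoint, had 669.8, 522, 591 and 419 in Hep3B, 761, 480.4, 604 and 205 in Huh7 and 403, 82.8, 425 and 54.2 in MHCC97H. DTL, which marks CDT1 for destruction, had 1159, 1099, 1087 and 864 in Hep3B, 855, 748, 758 and 481 in Huh7 and 1249, 359, 1375 and 346 in MHCC97H. The AZD8055 effect on both was lower in MHCC97H than in the other lines, at -1.84 ± 0.28 (adjusted p = 0.0108) and -1.58 ± 0.17 (adjusted p = 0.00545). POLD4, a small subunit of the lagging strand polymerase, went the other way with the combination (1.07 ± 0.35, adjusted p = 0.0377) and had 65.7, 108, 47.4 and 71.3 in Hep3B, 16.3, 47.4, 26.6 and 83.5 in Huh7 and 40, 91.3, 33.4 and 70.4 in MHCC97H. DBF4, the activator of the CDC7 kinase that fires origins, was the 1 gene of this list called with AZD8055 across the lines (-0.78 ± 0.16, adjusted p = 0.0394), where 0.753% of all genes were called lower. It had 522, 298, 394 and 241 in Hep3B, 692, 488, 770.2 and 344 in Huh7 and 809.8, 400.1, 839 and 457 in MHCC97H.

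Of 13 E2F and RB genes, 6 were called lower and 1 higher in the same difference (4.46% and 5.07% of all genes). E2F1, an activator of replication genes, had 322, 369.7, 505 and 381 in Hep3B, 857, 721, 889 and 604 in Huh7 and 714, 172, 818 and 176 in MHCC97H. In MHCC97H the libraries with AZD8055 were below both libraries without it, and in Hep3B all 3 treated libraries were above untreated. The difference was -1.87 ± 0.20 (adjusted p = 0.00545). E2F2, another activator, had 187, 183, 173 and 147 in Hep3B, 159, 128, 153 and 88.6 in Huh7 and 214, 47.7, 311 and 50.2 in MHCC97H, with a difference of -2.04 ± 0.23 (adjusted p = 0.00685). TFDP1, a partner of the E2F factors, was called lower with AZD8055 alone across the lines (-0.77 ± 0.17, adjusted p = 0.0452), and TFDP2, another partner, was higher in MHCC97H in the difference (1.28 ± 0.22, adjusted p = 0.0149). TFDP1 had 3598, 2327, 2919.7 and 2029 in Hep3B, 1195, 785, 910.4 and 619.7 in Huh7 and 837, 399, 889 and 372 in MHCC97H, and TFDP2 had 284, 305, 328 and 328 in Hep3B, 192, 284, 268 and 279 in Huh7 and 48.4, 159, 92.2 and 217 in MHCC97H. RB1, which restrains the E2F factors, differed between lines in level: it had 61, 51.5, 74.3 and 65.6 in Hep3B, 1214, 1121, 1197 and 981 in Huh7 and 124, 107, 189.7 and 152 in MHCC97H. RB1 was highest in Huh7 in every treatment.

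Of 12 genes of S-phase entry, 4 were called lower and 1 higher in the difference of the AZD8055 effect (4.46% and 5.07% of all genes). CCNE2, a cyclin of S-phase entry, had 236, 235, 334 and 185 in Hep3B, 107, 141, 95.2 and 72.3 in Huh7 and 321, 75.8, 456 and 94.7 in MHCC97H. CDC25A, a phosphatase that activates cyclin-dependent kinases, had 566, 358, 338 and 241 in Hep3B, 1437, 696, 965 and 403 in Huh7 and 351, 69.5, 382 and 51 in MHCC97H. Their differences were -1.95 ± 0.30 (adjusted p = 0.0118) and -1.74 ± 0.19 (adjusted p = 0.00575). CCNE1, another such cyclin, had 319, 267, 379 and 236 in Hep3B, 182, 163, 139 and 106 in Huh7 and 195, 113, 205 and 97.9 in MHCC97H, and was lower with the combination across the lines (-0.73 ± 0.20, adjusted p = 0.0196). CCND1, a cyclin that acts before S phase, had 1940.0, 1810.2, 1233 and 1017 in Hep3B, 3938, 9783, 4245 and 5929 in Huh7 and 3178, 3013, 2864 and 2749 in MHCC97H, with the highest value in the Huh7 library with AZD8055. CDKN1A, an inhibitor of cyclin-dependent kinases, had 22.5, 46.6, 140.2 and 92.4 in Hep3B, 73.3, 55.7, 37.6 and 39.6 in Huh7 and 528, 782, 814 and 1062 in MHCC97H. CDKN1B, another inhibitor, was higher with the combination across the lines (0.58 ± 0.18, adjusted p = 0.0299) and had 439, 536, 635 and 681 in Hep3B, 699, 892, 781 and 753 in Huh7 and 353, 602, 442 and 708 in MHCC97H.

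**Figure D4:**
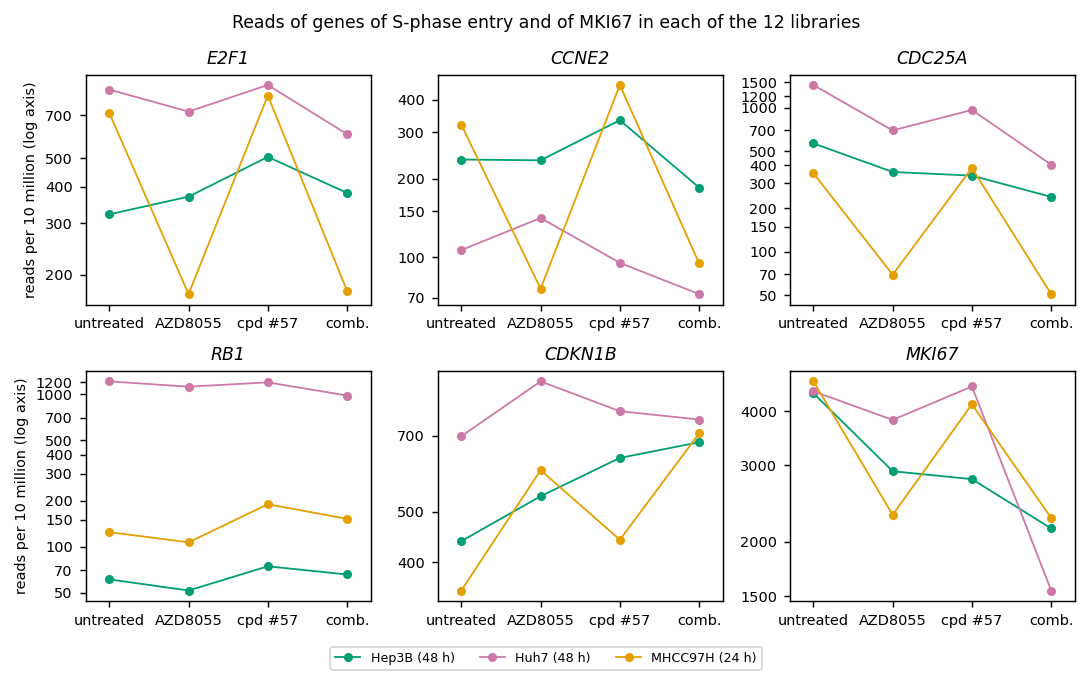
Reads per 10000000 (log axis, its range set per gene) of E2F1, CCNE2, CDC25A, RB1, CDKN1B and MKI67 in the 12 libraries, by treatment and cell line. Each point is 1 library, and lines join the libraries of a cell line. E2F1, CCNE2 and CDC25A are lowest in the 2 MHCC97H libraries with AZD8055 within their line, and RB1 is highest in Huh7.

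Of 16 genes of mitosis, 12 were called lower with the combination across the lines (15.1% of all genes). In the difference of the AZD8055 effect between MHCC97H and the other lines, 0 were called by limma (4.46% of all genes lower, 5.07% higher). At an unadjusted p under 0.05, 2 were lower (13.8% of all genes), and the median was -0.20. In MHCC97H itself 10 of 16 were called lower with AZD8055 (14.8% of all genes, median -0.56, against -1.20 for the members). This effect averages over libraries without and with compound #57. With AZD8055 alone against untreated, 2, 2 and 13 of 16 were at least 1.5-fold lower in Hep3B, Huh7 and MHCC97H. All genes gave 4.32%, 10.1% and 10.5%. The medians of the mitosis genes were -0.30, -0.18 and -0.81 there. For the combination against compound #57 they were -0.15, -0.72 and -0.32. MKI67, a marker of proliferating cells, had 4396, 2908, 2788 and 2148 in Hep3B, 4442, 3816, 4556 and 1546 in Huh7 and 4680.4, 2308, 4145 and 2270.3 in MHCC97H. CDK1, the kinase of mitotic entry, had 1525, 1404, 1197 and 1139 in Hep3B, 2013, 2080.4, 1732 and 1135 in Huh7 and 1317, 598, 1185 and 739 in MHCC97H. In MHCC97H, both genes were lower in the 2 libraries with AZD8055 than in the 2 without it. The change of CDK1 with the combination across the lines was -0.69 ± 0.24 (adjusted p = 0.0456), and that of MKI67 was -1.20 ± 0.23 (adjusted p = 0.00583). In the effect of compound #57 by limma, 12, 2 and 0 mitosis genes were called lower in Hep3B, Huh7 and MHCC97H (medians -0.62, -0.49 and -0.019). All genes gave 13.3%, 3.43% and 0.736%, and the members had medians of -0.32, -0.30 and 0.084. Across the lines 0 of 16 were called with compound #57. At an unadjusted p under 0.05, 7 were lower, against 0 of 40 members and 8.1% of all genes.

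The order of the members within a comparison was partly shared between lines. For the combination against untreated, Spearman's rho over the 40 members was 0.54 between Hep3B and Huh7, 0.66 between Huh7 and MHCC97H and 0.39 between Hep3B and MHCC97H, against 0.71, 0.53 and 0.52 over all genes. For AZD8055 it was 0.36, 0.45 and 0.37, against 0.62, 0.44 and 0.47 over all genes. For compound #57 it was 0.59, 0.39 and 0.46, against 0.69, 0.34 and 0.38. These are correlations across genes for pairs of lines that share no library. Genes are not independent replicates, and all members of a line share the same 2 libraries and their depth.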

How the data were processed

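RNA-seq libraries of 3 HCC lines under 4 treatments were made by the authors from polyA RNA with a stranded TruSeq kit and related to hg38, per the labels. The aligner, the counting, its use of strand and the normalization are not given in the sources used here. The deposited values were log2 values. Their steps gave the scale: reads scaled to 10000000 per library plus a constant of 1, with 0 reads written as 0.001. Whole reads were recovered for 100% of the values within a tolerance of 0.02 of a read. Groups came from the labels.

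The members and lists were chosen with earlier results of these data known. All 40 members could be named by role, and genes of the lists were named among those called. Limma 3.58.1 (R 4.3.3) was fitted to the log2 values of all 11548 genes with treatment and cell line as terms (6 residual degrees of freedom), and with an effect of each drug within each line (3 residual degrees of freedom). P-values were adjusted by Benjamini-Hochberg over all genes, with a threshold of 0.05. The cell line was a block because libraries of a line come from the same cells. Deviations from the treatment means correlated at 0.872 to 0.960 for 18 pairs of the same line and at -0.74 to 0.10 for 36 pairs of different lines. Subtracting the mean of the lines pushes the correlations between different lines below 0 by construction, so they are no separate support for the block. Alternatives were a constant of 10, centring, voom on whole reads, 75% of genes, no block, only the libraries compared and libraries left out. Those of the effects within lines were chosen after seeing the data. The fits were tested on simulated data. Python 3.11.15, pandas 2.3.3 and scipy 1.17.1 were used for the rest.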

Additional observations from a re-analysis of the deposited data

Results flagged for a closer look

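The effect of AZD8055 was called different between MHCC97H and the mean of Hep3B and Huh7 by limma for 34 of 40 members. Of all genes, 4.46% were called lower and 5.07% higher in this test. It assumes that both drugs add up within a line, and its p holds no spread between replicates. The count fell when a library of MHCC97H was left out. The values are differences of log2-fold changes, MHCC97H minus the mean of the other lines, so that a negative value means a lower ratio in MHCC97H. MHCC97H was also the line collected after 24 h, and line and time cannot be told apart. In licensing the differences were ORC1 at -1.06, ORC6 at -1.03, CDC6 at -1.68, CDT1 at -1.17, MCM2 at -0.94, MCM3 at -0.99, MCM4 at -1.03, MCM5 at -1.18, MCM6 at -0.91 and MCM7 at -0.72. In helicase activation the differences were MCM10 at -2.18, CDC45 at -1.61, GINS1 at -1.21, GINS2 at -1.80, GINS3 at -0.66 and GINS4 at -1.05. In the clamp and its loader the differences were PCNA at -1.15, RFC2 at -0.90, RFC3 at -0.95, RFC4 at -1.02 and RFC5 at -0.70. In polymerases and primase the differences were POLA1 at -0.66, POLA2 at -1.20, PRIM1 at -1.15, POLD1 at -0.66, POLE at -0.70 and POLE2 at -0.97. In flap removal and nucleotide supply the differences were FEN1 at -1.13, RRM1 at -0.69, RRM2 at -1.40, TYMS at -1.31 and TK1 at -0.84. In chromatin the differences were CHAF1A at -1.04 and UHRF1 at -1.30. Among genes outside the members, the same test passed for DTL at -1.58, CLSPN at -1.84, E2F1 at -1.87, E2F2 at -2.04, TFDP1 at -0.58, TFDP2 at 1.28, CCNE2 at -1.95 and CDC25A at -1.74.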

How the results depend on the processing

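Of 252 alternatives to counts and medians, 217 stayed within their limits. A median passed if it moved by less than the SD of the medians of the 3 lines. This limit was wide where the lines differed, as with AZD8055 (-0.096 in Hep3B and -1.19 in MHCC97H), and it let a change of sign pass. A count of 0 that stayed 0 also passed. The 217 therefore cannot show that the results are stable. The 1 median that changed sign was that of compound #57 in MHCC97H, from 0.085 to -0.024 with centring, a shift smaller than the SD of the medians of the 3 lines. Of 803 alternatives for named members 527 stayed on their side of the threshold, 276 lost the call and 0 changed sign. Unless a value or the smaller number of libraries shows it, the cause was not tested. The shares of all genes called in these alternatives are not given here, so their counts do not show a trait of the members. Without the cell line as a block, 0 members were called for the combination against untreated and 0 against compound #57, in place of 24 and 1. With voom, 1 member was called for AZD8055 against untreated, 2 for the combination against compound #57 and 1 for AZD8055 in Hep3B. The last was also 1 with a constant of 10 and 1 with centring. With only the libraries compared, 3 members were called for the combination against compound #57. With Hep3B alone in place of the mean, 2 members were called higher for compound #57 in MHCC97H. Leaving out the libraries of 1 line gave 0 to 1 members for compound #57, 0 to 26 for the combination against untreated (10 without Hep3B, 0 without Huh7) and 0 to 2 against compound #57. Leaving out 1 library gave 1 to 30 for the difference of the AZD8055 effect, 1 to 16 for AZD8055 in Huh7, 28 to 39 for AZD8055 in MHCC97H, 4 to 14 for compound #57 in Hep3B and 0 to 5 in Huh7. Depth limits the precision of the members with few reads: for POLE2 with the combination in MHCC97H, the counting interval ran from -1.41 to -0.55.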
